A study of Mus musculus with 9 samples.

Results

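Mitochondrial ribosomal protein genes were followed on 9 one-colour microarrays of mouse 3T3-L1 cells, fibroblasts widely used as precursors of adipocytes in culture. Members were the gene probes whose name in the scanner files of replicate 1 begins with Mrpl or Mrps and a digit, 124 probes of 41174. They stand for 75 of the 16736 genes tested, 46 with a large subunit symbol (Mrpl) and 29 with a small subunit symbol (Mrps). The groups were cells given X-1 at 70 µM for 24 h, cells given X-3 at 70 µM for 24 h, and untreated control cells, with 3 arrays each. X-1 and X-3 are known here only as derivatives of mangiferin, a plant polyphenol. All cells were preadipocytes grown in 10% serum and starved of serum for 48 h, so the whole comparison was made in serum-starved cells of 1 line. According to the design text the 9 experiments were independent.

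The mitochondrial ribosome makes the few proteins encoded in mitochondrial DNA, which are core subunits of the respiratory chain and ATP synthase. Its RNAs come from the mitochondrial genome, but its proteins are encoded in the nucleus, made by cytosolic ribosomes and imported. The small subunit binds the messenger RNA and decodes it, and the large subunit joins the amino acids. In fat cells the building of new mitochondria is known to accompany differentiation.

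All 10 preadipocyte markers examined (Pdgfra, Pdgfrb, Col1a1, Col1a2, Col3a1, Thy1, Dlk1, Ly6a, Cd34 and Pparg) were above background on all 3 arrays of each group. Of 7 markers of mature adipocytes, Adipoq, Plin1, Lep, Retn and Cfd were above background on 0 of 3 control arrays and Fabp4 on 3 of 3. The immune, endothelial and epithelial markers Ptprc, Adgre1, Itgam, Pecam1, Cdh5, Kdr, Epcam and Cdh1 were also above background on 0 of 3 control arrays, while Cd68, Cd3e, Tek and Krt8 passed on 3 of 3. Among these Fabp4 fell in both treated groups (by 2.84 in X-1 and 2.49 in X-3 on the log2 scale), and Krt8 had 1.89 in X-1 and 2.38 in X-3. Cd68 had 0.73 in X-1 and 1.11 in X-3, and 2 of 3 immune markers tested were called higher in each comparison. Tek was called lower in X-1, at −0.48, and was not called in X-3, at −0.33. Adipoq, Plin1, Cidec and Retn were above background on 2 of 3 X-3 arrays. Adipoq and Cidec passed on 1 of 3 X-1 arrays, and Cidec on 1 of 3 control arrays. Of the 10 preadipocyte markers 3 were higher and 4 lower in X-1, and 3 higher and 3 lower in X-3. Of all genes 28.0% were higher and 28.2% lower in X-1, and 28.9% and 26.4% in X-3. The mean log2 level of Ly6a was 3.36 in X-1 and 3.56 in X-3, against −0.03 in control cells. Pdgfra had 3.305 in X-1 and 3.32 in X-3, against 4.661 in control cells. Pdgfrb had 4.417 and 4.632, against 5.843. The part of any such shift in the results below was not tested. Same-numbered replicates shared a slide. X-3 replicate 1 stood apart: over all genes its root mean square log2 difference was 0.759 from X-3 replicate 2 and 0.744 from X-3 replicate 3, against 0.241 between replicates 2 and 3. Over the 75 members the same 3 values were 0.462, 0.476 and 0.109. Slide 1 also had a scan and a software version of its own. The place of an array on its slide went with its group (X-1 at position 2, X-3 at 3 and control at 1 on all 3 slides), and these cannot be told apart. No gene spot was saturated, and between 57.9% and 67.1% of spots per array were well above background.

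Levels are given as log2 intensity relative to the 75th percentile of the same array, so 0 is the signal of a probe at that percentile, and they are compared only between arrays for the same probe. Each gene is represented by its brightest probe above background. That probe was above background on all 9 arrays for all 75 genes, so no member was lost to the filter on dim probes. Differences were tested with limma over all 16736 genes, and a gene is called higher or lower when its Benjamini-Hochberg adjusted p is under 0.05. Of the alternative scalings, that to spike-in RNA used replicates 2 and 3 alone, so it changed both the scaling and the arrays, and its values are read beside those without slide 1.

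X-1 lowered a large share of the family. Of the 75 genes, 38 were lower and 3 higher in X-1 than in control cells, and 34 were not called. Of the members 50.7% were called lower and 4.0% higher, beside 28.2% and 28.0% of all genes tested. In either direction 41 members were called, and 56.3% of all genes. The median log2 difference of the members was −0.42, with 65 of 75 values below 0, while the median of all genes was 0.06. A fall of at least 2-fold was called for 9 members of 75, beside 14.7% of all genes. The falls were thus frequent but mostly under 2-fold with 75th percentile scaling. Their size depended on that scaling: with spike-in scaling of replicates 2 and 3 the member median was −1.24, beside −0.83 for all genes. Each array was given 0.5 µg of RNA, so spike-in scaling is relative to that amount and does not measure RNA per cell or cell number. With bulk RNA, fewer cells of a type and less RNA per cell cannot be told apart.

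X-3 gave 28 lower and 8 higher members against control, with 39 not called. Lower members made up 37.3%, beside 26.4% of all genes, and 28.9% of all genes were higher. In either direction 36 members were called, and 55.3% of all genes. The median was −0.31, against 0.05 for all genes, and 60 of 75 values lay below 0. A fall of at least 2-fold was called for 7 members, beside 12.9% of all genes. The lower count depended on X-3 replicate 1: without that array 47 members were lower (62.7%, against 30.8% of all genes), and without the whole of slide 1 the count was 51 (68.0%, against 34.4%), with 8 higher each time. For X-1, leaving out slide 1 gave 43 lower and 6 higher (57.3% and 8.0%, against 33.3% and 35.7% of all genes).

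Both comparisons use the same 3 control arrays, so their values are given side by side. The 3 arrays of X-1 lay wholly below the 3 control arrays for 49 members (65.3%), beside 33.8% of all genes, and those of X-3 for 34 members (45.3%), beside 29.2%. They lay wholly above control for 8 members in X-1 and 12 in X-3, beside 34.7% and 32.7% of all genes.

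**Figure D1:**
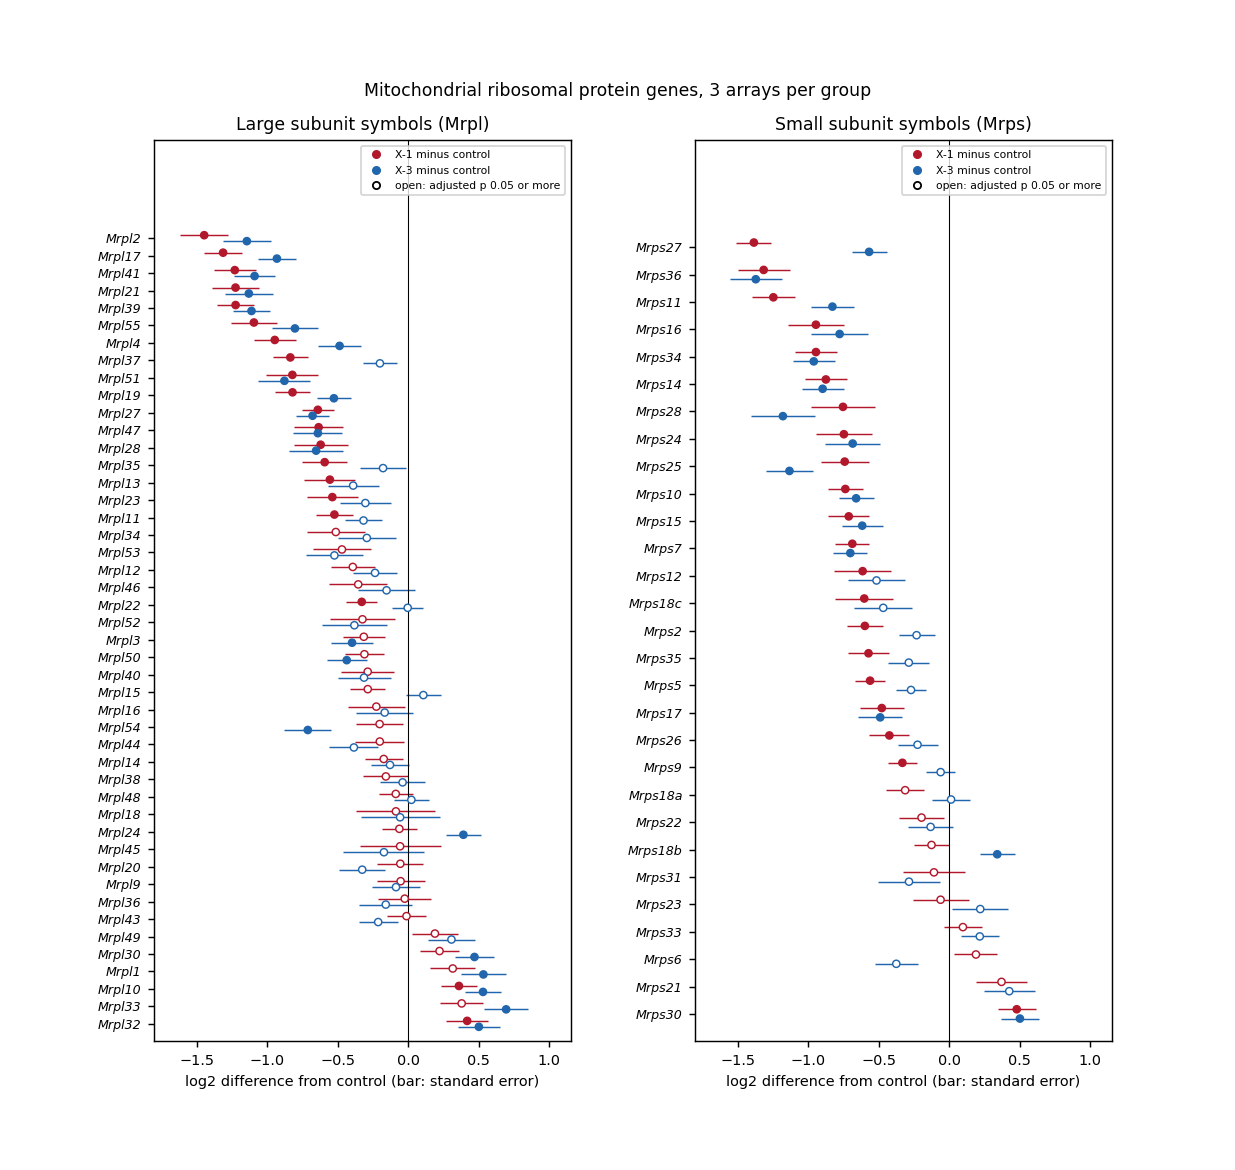
Log2 difference from control for each of the 75 genes (horizontal axis, with standard error), large subunit symbols on the left and small subunit symbols on the right, ordered by the X-1 difference. Red points are X-1 minus control, blue points X-3 minus control, and open points have an adjusted p of 0.05 or more. X-1 differences run from −1.45 for Mrpl2 to 0.48 for Mrps30, and the calls above 0 are lost with median and with spike-in scaling.

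With 75th percentile scaling of all 9 arrays the small subunit held the larger share of genes called lower. In X-1 against control 20 of 29 small subunit genes were lower and 1 higher (69.0% and 3.45%), with a median of −0.60. Among the 46 large subunit genes 18 were lower and 2 higher (39.1% and 4.35%), with a median of −0.32. Of all genes 28.2% were lower and 28.0% higher in X-1. For X-3 the small subunit had 13 lower and 2 higher (44.8% and 6.9%) with a median of −0.47. The large subunit had 15 lower and 6 higher (32.6% and 13%) with a median of −0.30, beside 26.4% and 28.9% of all genes. In X-3 both counts depended on replicate 1: without that array 20 small subunit genes (69.0%) and 27 large subunit genes (58.7%) were lower. Without slide 1 the counts were 20 (69.0%) and 31 (67.4%). Of all genes, 30.8% were lower without that array and 34.4% without slide 1. With spike-in scaling the shares did not keep this order in X-1, at 89.7% for the small and 91.3% for the large subunit. In X-3 they were 82.8% and 82.6%. Of all genes 59.0% were lower in X-1 and 49.8% in X-3 with that scaling. The difference between the subunits was not tested, since genes are not replicates. By slide, the X-1 median was −0.60, −0.46 and −0.59 for the small subunit and −0.54, −0.21 and −0.28 for the large one, for slides 1, 2 and 3. The X-3 medians by slide were −0.23, −0.44 and −0.57 for the small subunit and −0.10, −0.35 and −0.44 for the large subunit. On each slide and with each compound the small subunit had the lower median.

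Symbols do not always match the place of the protein. In mammalian structures the proteins of Mrps30 and Mrps18a lie in the large subunit, and that of Mrps36 was later assigned to the 2-oxoglutarate dehydrogenase complex of the citric acid cycle. Mrps30 and Mrps18a were therefore moved to the large subunit and Mrps36 was left out of both, a choice made after the data were seen. X-1 then left 19 of 26 small subunit genes lower and 0 higher (limma, with a median of −0.60). The 48 large subunit genes then had 18 lower and 3 higher, with a median of −0.31. The lower shares were 73.1% of the small and 37.5% of the large subunit, beside 28.2% of all genes. For X-3 the counts by structure were 12 lower and 1 higher in the small subunit, and 15 lower and 7 higher in the large one. Their lower shares were 46.2% and 31.2%, beside 26.4% of all genes.

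Symbols with low numbers (Mrpl up to 36, Mrps up to 21) follow the numbering of bacterial ribosomal proteins, and these were also set apart from the higher numbers, going by the number and not by sequence. Of the 44 low-numbered genes 24 were lower and 2 higher in X-1 (54.5% and 4.55%, median −0.50). Of the other 31, 14 were lower and 1 higher (45.2% and 3.23%, median −0.35), beside 28.2% and 28.0% of all genes. In X-3 the 44 had 15 lower and 7 higher (34.1% and 15.9%, median −0.30). The 31 had 13 lower and 1 higher (41.9% and 3.23%, median −0.38), beside 26.4% and 28.9% of all genes. The lower median was that of the low numbers in X-1 and of the high numbers in X-3.

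**Figure D2:**
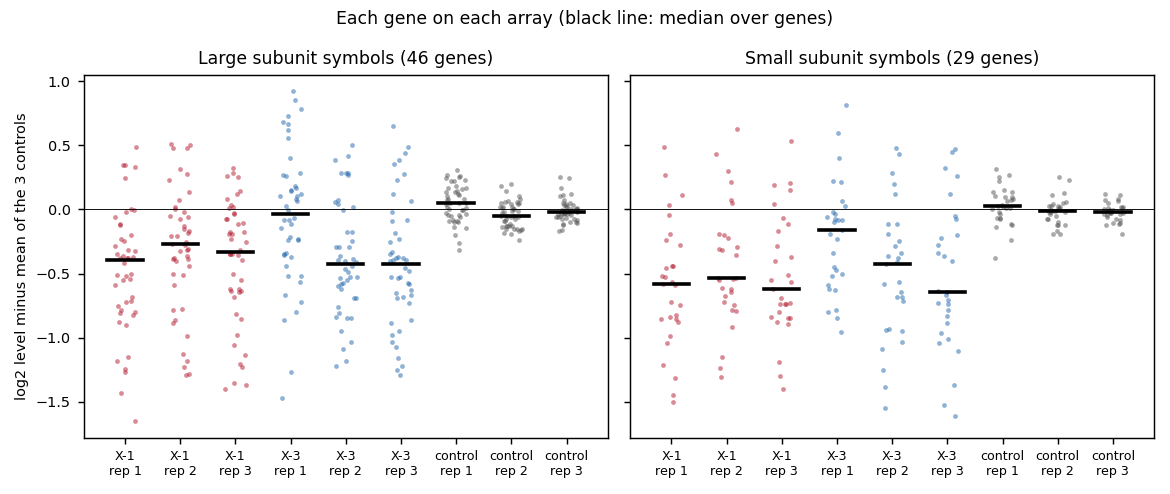
Each point is 1 gene on 1 array, as its log2 level minus the mean of the 3 control arrays (vertical axis), for 46 large subunit genes on the left and 29 small subunit genes on the right. Black lines are medians. X-1 medians run from −0.62 to −0.27, the median of X-3 replicate 1 is −0.03 for the large and −0.16 for the small subunit, and those of X-3 replicates 2 and 3 lie between −0.64 and −0.42.

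Among large subunit genes, Mrpl2 fell furthest in X-1. Its protein is a homologue of bacterial L2, which lies near the peptidyl transferase centre. Mrpl2, read by a probe at mm9 chr17:46785301-46785453, had log2 levels of −0.19, 0.17 and 0.06 on X-1 arrays 1 to 3 and 0.19, 0.52 and 0.24 on X-3 arrays, against 1.20, 1.48 and 1.70 on control arrays. The difference was −1.45 ± 0.17 (SE, 3 arrays each) in X-1, a 2.73-fold fall with a limma adjusted p of 8.95e-05. In X-3 it was −1.14 ± 0.17 (adjusted p = 0.000435). Neither treated group overlapped the control arrays.

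Mrpl17, Mrpl41, Mrpl21 and Mrpl39 made up the next group of falling large subunit genes, with X-1 differences of −1.31, −1.23, −1.22 and −1.22 and X-3 differences of −0.93, −1.09, −1.13 and −1.11. The L17 protein lies near the exit of the peptide tunnel in bacteria, and the proteins of Mrpl41 and Mrpl39 were added to the ribosome in mitochondria. Mrpl17 (mm9 chr7:112958345-112958404) had levels of 1.57, 1.72 and 1.77 on X-1 arrays and 2.28, 1.91 and 2.02 on X-3 arrays, against 2.94, 2.95 and 3.11 on control arrays. A second, far dimmer Mrpl17 probe gave 0.40 (adjusted p = 0.0974) in X-1 and 0.34 (0.152) in X-3. Mrpl39 (mm9 chr16:84718622-84724086) had 0.38, 0.40 and 0.41 on X-1 arrays and 0.76, 0.44 and 0.33 on X-3 arrays, against 1.67, 1.64 and 1.55 on control arrays. For these genes, and for Mrpl41 and Mrpl21, every treated array lay below every control array. The SE of these 4 genes was 0.13 to 0.17, and their adjusted p ran from 3.69e-05 to 0.000242 in X-1 and from 0.000116 to 0.00045 in X-3.

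Mrpl41 had 2.29, 2.25 and 2.08 on X-1 arrays and 2.64, 2.22 and 2.19 on X-3 arrays, against 3.52, 3.35 and 3.44 on control arrays (mm9 chr2:24829696-24829755). Mrpl21 had 0.57, 0.63 and 0.38 on X-1 arrays and 0.28, 0.91 and 0.68 on X-3 arrays, against 1.86, 1.70 and 1.70 on control arrays. In both genes the control arrays lay close together and the X-3 arrays were spread more widely.

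Mrpl55 and Mrpl4 completed the 7 large subunit genes among the 12 largest X-1 falls, at −1.09 and −0.95 (adjusted p = 0.000395 and 0.00059), and Mrpl51 stood among the 12 largest of X-3, at −0.88 (adjusted p = 0.00322). Mrpl4 had −0.10, −0.30 and −0.36 on X-1 arrays and 0.47, 0.12 and 0.03 on X-3 arrays, against 0.78, 0.56 and 0.74 on control arrays. Mrpl51 had 4.62, 4.66 and 4.58 on X-1 arrays and 5.00, 4.40 and 4.28 on X-3 arrays, against 5.56, 5.43 and 5.33 on control arrays. X-3 replicate 1 was the highest treated array in both. The other 11 called lower in X-1 were Mrpl11, Mrpl13, Mrpl19, Mrpl22, Mrpl23, Mrpl27, Mrpl28, Mrpl35, Mrpl37, Mrpl47 and Mrpl51, between −0.84 and −0.33. In X-3 the other 9 were Mrpl3, Mrpl4, Mrpl19, Mrpl27, Mrpl28, Mrpl47, Mrpl50, Mrpl54 and Mrpl55, between −0.80 and −0.40. Mrpl3 encodes another protein near the peptidyl transferase centre, and Mrpl54 a protein particular to the mitochondrial ribosome.

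The stalk of the large subunit recruits translation factors. Mrpl12 encodes the stalk protein that is the homologue of bacterial L7/L12. Its levels were 2.72, 2.96 and 2.96 on X-1 arrays and 3.34, 2.98 and 2.79 on X-3 arrays, against 3.33, 3.25 and 3.24 on control arrays. The X-1 difference of −0.39 missed the threshold (adjusted p = 0.0573), as did that of X-3, −0.24 (0.228). Mrpl11, at the stalk base, fell by 0.52 on the log2 scale in X-1 (adjusted p = 0.00856) and had −0.32 in X-3 (0.0713). Mrpl10, which anchors the stalk, was among the 3 genes called higher in both groups, calls that are lost with median and with spike-in scaling.

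Among small subunit genes, Mrps27 fell furthest in X-1. It encodes a protein with pentatricopeptide repeats, a fold that binds RNA. Mrps27 (mm9 chr13:100185032-100185091) had levels of −2.38, −2.23 and −2.33 on X-1 arrays and −1.55, −1.31 and −1.64 on X-3 arrays, against −1.0, −0.90 and −0.88 on control arrays. The 3 groups did not overlap, with X-1 lowest and X-3 between X-1 and control. The difference was −1.39 ± 0.12 in X-1 (adjusted p = 1.69e-05) and −0.57 ± 0.12 in X-3 (0.00395).

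Mrps36 had 1.52, 1.87 and 1.72 on X-1 arrays and 2.06, 1.47 and 1.41 on X-3 arrays, against 3.04, 3.00 and 3.02 on control arrays, at mm9 chr13:101505943-101506002. It fell by 1.32 in X-1 and by 1.37 in X-3 on the log2 scale (SE 0.18, adjusted p = 0.000267 and 0.000237), and a second probe was also called lower in both, at −0.76 and −0.64. Mrps11 encodes a homologue of bacterial S11, on the platform of the small subunit. Its levels were 0.01, 0.09 and 0.13 on X-1 arrays and 0.83, 0.38 and 0.28 on X-3 arrays, against 1.34, 1.32 and 1.31 on control arrays (mm9 chr7:85933622-85935544). The differences were −1.25 in X-1 and −0.83 in X-3 (adjusted p = 0.000106 and 0.00143).

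Mrps28 and Mrps25 had 2 of the 4 largest X-3 falls. Mrps28 had levels of 2.96, 3.09 and 2.82 on X-1 arrays and 3.08, 2.32 and 2.18 on X-3 arrays, against 3.86, 3.59 and 3.68 on control arrays. Mrps25 had 0.92, 1.19 and 1.07 on X-1 arrays and 1.02, 0.55 and 0.43 on X-3 arrays, against 1.93, 1.78 and 1.69 on control arrays. For both, X-3 replicate 1 lay with the X-1 arrays and X-3 replicates 2 and 3 lay lower. The X-3 differences were −1.18 and −1.13 (adjusted p = 0.00188 and 0.000463), the X-1 differences −0.75 and −0.74 (0.0178 and 0.00483). X-3 against X-1 was not called for either, at −0.43 with a 95% interval of −0.93 to 0.08 for Mrps28 and −0.39 with −0.78 to −0.01 for Mrps25 (adjusted p = 0.259 and 0.176). A second, less bright Mrps25 probe gave smaller differences from control, −0.12 in X-1 and −0.42 in X-3, so the size of that fall depended on the probe.

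Mrps34, Mrps16 and Mrps14 were lower in both groups, by −0.95, −0.95 and −0.87 in X-1 and −0.96, −0.78 and −0.90 in X-3, with adjusted p between 0.000526 and 0.0093. Mrps34 had 3.21, 3.64 and 3.58 on X-1 arrays and 3.57, 3.49 and 3.32 on X-3 arrays, against 4.30, 4.47 and 4.50 on control arrays. Mrps14 had 1.1, 1.30 and 1.24 on X-1 arrays and 1.5, 1.0 and 1.08 on X-3 arrays, against 2.16, 2.05 and 2.06 on control arrays. In both, treated and control arrays were apart. Mrps12 encodes the homologue of bacterial S12 at the decoding centre. It had 2.60, 3.13 and 2.74 on X-1 arrays and 3.34, 2.72 and 2.70 on X-3 arrays, against 3.42, 3.49 and 3.40 on control arrays. It fell by 0.61 in X-1 (adjusted p = 0.0278), and its X-3 difference of −0.52 missed the threshold (0.0555), although all 3 X-3 arrays lay below the control arrays. Also called lower in X-1 were Mrps2, Mrps5, Mrps7, Mrps9, Mrps10, Mrps15, Mrps17, Mrps18c, Mrps24, Mrps25, Mrps26, Mrps28 and Mrps35, between −0.75 and −0.33. Of these, Mrps7, Mrps10, Mrps15, Mrps17, Mrps24, Mrps25 and Mrps28 were called lower in X-3 too.

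The related genes Mrps18a, Mrps18b and Mrps18c encode versions of bacterial S18, and they differed in their calls. Mrps18c fell by 0.60 in X-1 (adjusted p = 0.0315) and had −0.47 in X-3 (0.0801). Mrps18a had −0.31 in X-1 (0.074) and 0.01 in X-3 (0.944). Mrps18b had −0.13 in X-1 (0.414) and was called higher in X-3, by 0.34 (0.0432). That call was lost with the slide as a block (adjusted p = 0.0582), with quantile normalization (0.0568), and with median and spike-in scaling.

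The genes called higher were few, and each of these calls depended on the scaling between arrays. Mrps30, Mrpl10 and Mrpl32 were called higher in both groups, at 0.48, 0.36 and 0.42 in X-1 and 0.50, 0.53 and 0.50 in X-3. With each array scaled to its median none of them was called. With spike-in scaling none was called either, at values from −0.51 to −0.20 (adjusted p = 0.121 to 0.571), while without slide 1 and with 75th percentile scaling all 3 were called higher in both. Mrpl32, whose protein is trimmed by the m-AAA protease before it enters the ribosome, had 1.68, 1.69 and 1.45 on X-1 arrays and 1.97, 1.47 and 1.63 on X-3 arrays, against 1.19, 1.18 and 1.19 on control arrays. Mrps30 had 3.09, 3.46 and 3.36 on X-1 arrays and 3.42, 3.25 and 3.30 on X-3 arrays, against 2.71, 2.96 and 2.80 on control arrays. Mrpl10 had 2.64, 2.78 and 2.55 on X-1 arrays and 2.98, 2.72 and 2.78 on X-3 arrays, against 2.37, 2.34 and 2.18 on control arrays. Treated and control arrays did not overlap for any of the 3 genes. The adjusted p of Mrps30, Mrpl10 and Mrpl32 was 0.0138, 0.0356 and 0.038 in X-1 and 0.0116, 0.00617 and 0.0182 in X-3. In X-1 the Mrps30 call was lost without X-1 replicate 2 (0.0574), and the calls of Mrpl10 and Mrpl32 ended on leaving out replicate 1 or 2 of X-1, replicate 3 of X-3, or replicate 2 or 3 of control, and that of Mrpl32 also on leaving out control replicate 1.

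X-3 raised 5 more genes, Mrpl33, Mrpl1, Mrpl30, Mrpl24 and Mrps18b, by 0.69, 0.53, 0.47, 0.39 and 0.34, and these too were not called with median scaling or with spike-in scaling, where they had −0.41 to −0.0024 (adjusted p = 0.229 to 0.995). Without slide 1 and with 75th percentile scaling all 5 were called higher. Mrpl33 encodes a small protein, the homologue of bacterial L33. It had 5.94, 6.09 and 5.94 on X-1 arrays and 6.53, 6.12 and 6.26 on X-3 arrays, against 5.83, 5.42 and 5.58 on control arrays (mm9 chr5:31924925-31924984). Mrpl24 had 2.71, 2.83 and 2.76 on X-1 arrays and 3.45, 3.1 and 3.11 on X-3 arrays, against 2.84, 2.83 and 2.82 on control arrays, so its X-1 arrays overlapped the control arrays and its X-3 arrays lay above them. All X-3 arrays of Mrpl33 also lay above the control arrays, by 0.69 ± 0.15 on average (adjusted p = 0.00443), and the X-1 difference of 0.38 was not called (0.0632). Leaving out control replicate 2 ended the X-3 calls of Mrpl1, Mrpl30, Mrpl32, Mrpl24 and Mrps18b, leaving out control replicate 3 those of Mrpl1, Mrpl32, Mrpl24 and Mrps18b, and leaving out control replicate 1 those of Mrpl24 and Mrps18b. That of Mrps18b also ended on leaving out replicate 2 or 3 of either compound.

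Genes called in neither comparison included Mrpl44, whose protein resembles RNase III, and Mrps22, Mrpl16 and Mrpl18. Mrpl15 and Mrpl38 were also called in neither by their brightest probe, but another probe of each was called in both: that of Mrpl15 fell by 0.83 in X-1 and 1.16 in X-3 (adjusted p = 0.00171 and 0.000267), and that of Mrpl38 had 0.63 and 0.65 (0.0446 and 0.0388) with 75th percentile scaling. For genes called in neither, the 95% intervals for the difference from control reached up to 0.65 on either side of the estimate. In X-1 the 34 uncalled members ranged from −0.51 to 0.38, and in X-3 the 39 uncalled ones from −0.52 to 0.43.

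At matched dose and time few members were called between the compounds. X-3 against X-1, the 1 compound pair, gave 3 higher and 1 lower of 75 genes, 4.0% and 1.33%, beside 6.97% and 3.57% of all genes. The 3 X-3 arrays lay wholly above the 3 X-1 arrays for 20 members (26.7%) and wholly below for 2, beside 19.0% and 11.8% of all genes. The 71 members that were not called had differences between −0.51 and 0.46, with 95% intervals reaching 0.23 to 0.65 on either side. Mrps27 was 0.82 ± 0.12 higher in X-3 than in X-1 (95% interval 0.54 to 1.1, adjusted p = 0.00723). Within slides 1, 2 and 3 its difference was 0.83, 0.93 and 0.69, and its call held without each single array.

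Mrpl37, whose protein is particular to the mitochondrial ribosome, had −0.07, −0.01 and −0.02 on X-3 arrays, against −0.58, −0.61 and −0.81 on X-1 arrays and 0.03, 0.31 and 0.16 on control arrays. It was 0.64 higher in X-3 than in X-1 (SE 0.12, adjusted p = 0.0154). Its X-3 arrays lay just below the control arrays and were not called lower, at −0.20 (0.19), while X-1 was lower than control by −0.84 (0.000347). The Mrpl37 call was lost on leaving out replicate 2 or 3 of either compound, at adjusted p of 0.0522 to 0.0671, and also with median scaling (0.0898) and without the filter on dim probes (0.0617), with a difference of 0.63 or 0.64 in these last 2.

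Mrps18b had −1.32, −1.05 and −1.21 on X-3 arrays, against −1.57, −1.75 and −1.64 on X-1 arrays, a difference of 0.47 (adjusted p = 0.0466). Mrps6 was the 1 gene lower in X-3 than in X-1, with 5.47, 5.14 and 4.92 on X-3 arrays, against 5.67, 5.86 and 5.71 on X-1 arrays and 5.63, 5.56 and 5.47 on control arrays, a difference of −0.56 (0.049). X-3 replicate 1 was the X-3 array nearest to X-1 in Mrps6. With the slide as a block, since same-numbered arrays shared a slide, the Mrps18b and Mrps6 calls were lost (adjusted p = 0.0647 and 0.0523). Both calls were also lost on leaving out any single array other than X-3 replicate 1. Median scaling (adjusted p = 0.176 and 0.223) and leaving out the filter on dim probes (0.146 and 0.142) ended them too.

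**Figure D3:**
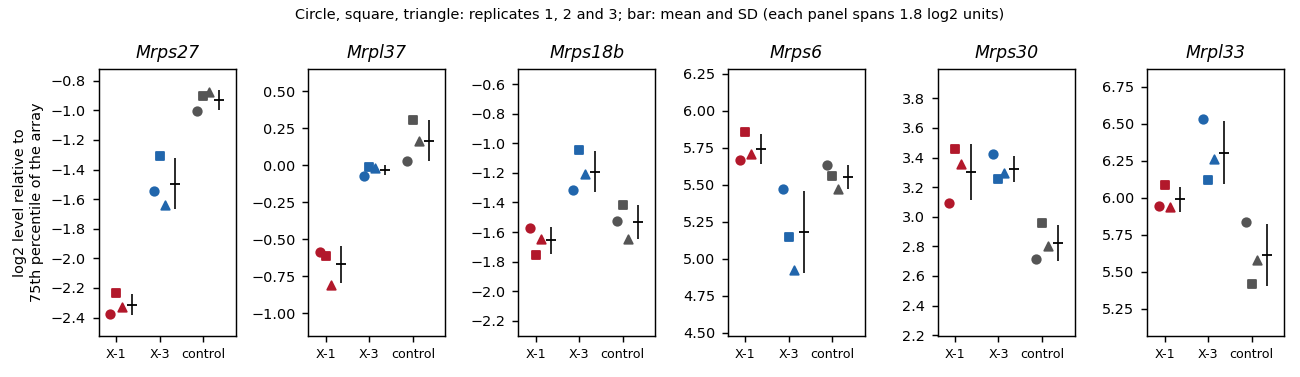
Log2 level relative to the 75th percentile of the array (vertical axis) for 6 genes in X-1, X-3 and control cells, with circles, squares and triangles for replicates 1, 2 and 3 and bars for mean and SD. Mrps27 separates the 3 groups, Mrpl37 is low in X-1, Mrps18b is highest and Mrps6 lowest in X-3, and Mrps30 and Mrpl33 lie above control in X-3, calls that are lost with median and with spike-in scaling.

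The median of all members in X-3 against X-1 was 0.11, and it rested on slide 1, where X-3 replicate 1 lay: by slide it was 0.39, −0.05 and −0.04, beside 0.16, −0.03 and −0.01 for all genes. Without X-3 replicate 1 the pair gave 4 higher and 4 lower members (beside 10.1% and 10.2% of all genes), and without slide 1 it gave 7 higher and 13 lower (9.33% and 17.3%, beside 17.3% and 21.1% of all genes).

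Several genes were read by more than 1 probe, and their probes did not always move together. Of the 75 genes 42 had 1 probe and 33 had several, up to 4, and 30 had several above background. When each probe was tested by itself, 52 of the 119 member probes kept were lower and 6 higher in X-1 (26.7% and 28.1% of all kept probes), and 38 were lower and 12 higher in X-3 (25.5% and 28.5%). Probes of 1 gene had differences of opposite sign for 10 genes in X-1 and 13 in X-3. One of the 13 is Mrps18b, whose second probe is placed on the plus strand while its brightest probe and its promoter are on the minus strand, so that probe is not set against the gene. Both signs were called for Mrps17 in X-1, and for Mrps17, Mrpl50 and Mrpl1 in X-3. The 5 probes not kept belong to Mrpl27, Mrpl33, Mrpl41, Mrpl52 and Mrps18b, each of which kept another probe.

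The probes of these 3 genes are shown by their first 30 bases, because the reading of the gene turns on which of them is used. Each is written 5′ to 3′, and capitals are not used. Coordinates are mm9, from the scanner files.
Mrps17, chr5:130221732-130221791: tagtaatactccctaacccgggaccagttc
Mrps17, chr5:130224174-130224233: ctctgaactgaaggtactgattactctgta
Mrpl50, chr4:49527089-49527148: aatgttcctgttcaagacaaatctaaattt
Mrpl50, chr4:49525602-49525661: aaagttccactgtgttttactccataagta
Mrpl1, chr5:96667890-96667949: gaattatttaaaacggcacatgaaattatg
Mrpl1, chr5:96693335-96693394: tcaaacggcagaagctgcctagaagtgtta
Mrpl1, chr5:96694805-96694864: atattcgggacactaataaacaggaaaagg

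Mrps17 encodes the homologue of bacterial S17, an early binding protein of the small subunit. Its probe nearer the transcript start, at transcript position 195, had 1.27, 1.63 and 1.55 on X-1 arrays and 1.52, 1.30 and 1.52 on X-3 arrays, against 0.56, 0.95 and 0.97 on control arrays. The brighter probe, at position 803, had 3.42, 3.67 and 3.44 on X-1 arrays and 3.83, 3.35 and 3.32 on X-3 arrays, against 3.95, 4.01 and 4.01 on control arrays. The first rose by 0.65 in X-1 and 0.62 in X-3, and the second fell by 0.48 and 0.49, each past the threshold with no overlap between treated and control arrays.

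For Mrpl50 the probe at transcript position 423 rose in X-1 and X-3, by 0.49 and 0.61 (adjusted p = 0.0204 and 0.00741), and the brighter one at position 1910 had −0.31 (0.0971) and −0.44 (0.0298). For Mrpl1, the homologue of bacterial L1, the probes at positions 765 and 1037 had 0.39 and 0.32 in X-1 and 0.49 and 0.53 in X-3, of which the 0.53 alone was called. The third, at position 2507, fell by 1.69 in X-1 and 1.91 in X-3 (adjusted p = 0.000202 and 0.000111). Mrpl35 gave the widest spread of 1 sign, from −2.65 to −0.59 in X-1 and from −2.66 to −0.18 in X-3. Values of single probes were computed with 75th percentile scaling. Whether these probes read different transcripts was not tested.

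**Figure D4:**
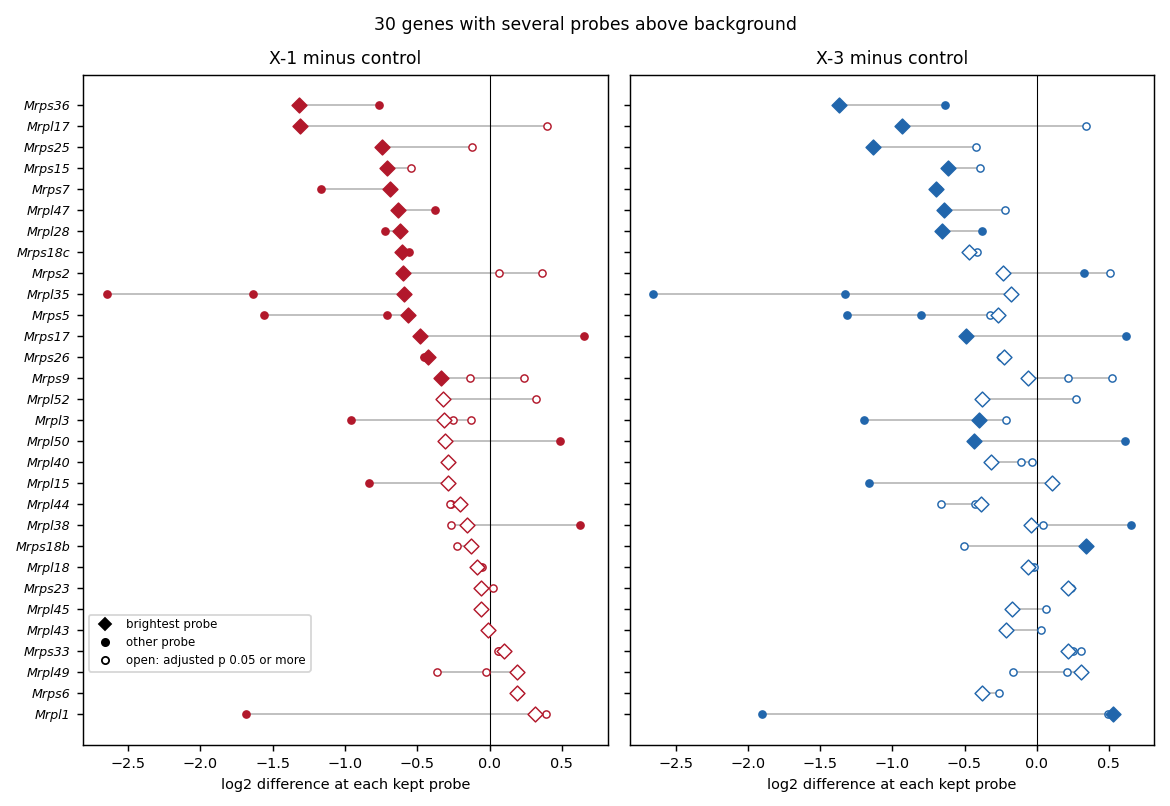
Log2 difference from control at each probe above background (horizontal axis) for the 30 genes with several such probes, X-1 on the left and X-3 on the right. Diamonds mark the brightest probe, which stands for the gene, circles the other probes, and open symbols an adjusted p of 0.05 or more. The lines join probes of 1 gene and cross 0 for 10 genes in X-1 and 13 in X-3.

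Promoters of the family are known to carry sites for the factors NRF1, YY1 and the ETS protein GABP, which control many nuclear genes for mitochondrial proteins. Promoter sequences, 250 bases before to 50 after the start, were taken from RefSeq (GRCm38.p6), which matched 66 of the 75 genes. Motifs were searched on both strands. The NRF1 motif (GCGCA, any base, GCGC) was in 12 of 66 promoters (18.2%), against 4.78% of 27025 promoters of all genes, the ETS motif CCGGAAG in 23 (34.8%, against 9.12%) and the YY1 motif AAGATGGCG in 7 (10.6%, against 1.49%). The E-box CACGTG was in 5 (7.58%, against 7.24%) and the hypoxia response core ACGTGC in 5 (7.58%, against 5.92%). The last 2 share 5 letters and can overlap. A match is a description of the letters and not a sign of binding.

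Each motif occurred among genes called lower and among the others. Of the 32 promoters of genes called lower in X-1, 4 held the NRF1 motif, 10 the ETS motif, 5 the YY1 motif, 3 the E-box and 3 the hypoxia core, against 8, 13, 2, 2 and 2 of the 34 other promoters. Stretches from 150 bases before to 30 after the start are shown for 4 genes that fell in both groups (Mrps27, Mrps11, Mrpl39, Mrpl17), for Mrpl32, called higher in both, and for Mrpl33, called higher in X-3, to set promoters with the same motif beside opposite calls. The called rises of Mrpl32 and Mrpl33 are lost with median and with spike-in scaling. Each is written 5′ to 3′ on the strand of the gene, with motif matches of either strand in capitals.
Mrps27, chr13:99344636-99344815, plus strand, ETS then YY1: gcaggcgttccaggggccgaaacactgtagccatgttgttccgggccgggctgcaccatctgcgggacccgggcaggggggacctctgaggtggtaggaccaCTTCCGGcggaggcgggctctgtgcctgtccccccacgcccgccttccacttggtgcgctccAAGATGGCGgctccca
Mrps11, chr7:78782981-78783160, plus strand, YY1: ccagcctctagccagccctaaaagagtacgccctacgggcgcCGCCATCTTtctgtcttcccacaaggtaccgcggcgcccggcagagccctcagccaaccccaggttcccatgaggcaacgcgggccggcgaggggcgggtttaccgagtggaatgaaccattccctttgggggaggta
Mrpl39, chr16:84735215-84735394, minus strand, NRF1: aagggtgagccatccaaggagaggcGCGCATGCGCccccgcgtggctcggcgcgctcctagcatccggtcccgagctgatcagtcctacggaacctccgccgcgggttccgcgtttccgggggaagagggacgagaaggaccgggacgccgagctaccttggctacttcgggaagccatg
Mrpl17, chr7:105811058-105811237, minus strand, NRF1 then hypoxia core: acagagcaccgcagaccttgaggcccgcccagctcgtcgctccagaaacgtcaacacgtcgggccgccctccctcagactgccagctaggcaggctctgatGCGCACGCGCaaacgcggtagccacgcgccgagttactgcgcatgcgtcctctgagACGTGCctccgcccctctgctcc
Mrpl32, chr13:14613008-14613187, minus strand, NRF1: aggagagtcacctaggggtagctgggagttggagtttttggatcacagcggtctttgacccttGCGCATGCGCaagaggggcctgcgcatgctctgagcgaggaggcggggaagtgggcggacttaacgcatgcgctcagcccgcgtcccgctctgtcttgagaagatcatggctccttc
Mrpl33, chr5:31613801-31613980, plus strand, ETS: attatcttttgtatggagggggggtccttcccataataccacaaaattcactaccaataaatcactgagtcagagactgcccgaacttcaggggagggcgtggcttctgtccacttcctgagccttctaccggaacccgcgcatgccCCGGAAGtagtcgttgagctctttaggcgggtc

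Mrpl39 and Mrpl17, which fell, and Mrpl32 share the NRF1 motif. Mrps27 and Mrpl33 share the ETS motif. The stretch of Mrps11 overlaps that of Mrpl46, which starts on the opposite strand. Mrps11 fell in both groups, while Mrpl46 had −0.35 in X-1 and −0.15 in X-3 and was called in neither.

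Other genes of mitochondrial translation were set beside the family, from lists chosen with earlier results known. Their shares are read beside those of all genes, which were 28.2% lower and 28.0% higher in X-1 and 26.4% and 28.9% in X-3, and with spike-in scaling 59.0% lower and 9.32% higher in X-1 and 49.8% and 11.1% in X-3. Of 7 further mitoribosome genes (Dap3, Gadd45gip1, Ptcd3, Chchd1, Aurkaip1, Mrpl57 and Mrpl58) 4 (57.1%) were lower and 0 higher in both comparisons by limma, led by Gadd45gip1 (−1.39 in X-1 and −1.13 in X-3) and Mrpl58 (−1.01 and −0.88). Mrpl57 and Mrpl58 lie outside the 75 because the scanner files give them older names, as does Mrpl42.

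Mitochondrial translation factors had 16 of 18 genes measured, of which 7 were lower and 0 higher in X-1 (43.8% lower), and 4 lower and 2 higher in X-3 (25% and 12.5%, so the lower share in X-3 was near that of all genes). Metap1d, a methionine aminopeptidase of mitochondria, fell by 2.30 in X-1 and 1.44 in X-3 on the log2 scale, and was 0.85 higher in X-3 than in X-1 (adjusted p = 0.00679). Oxa1l, which inserts new proteins into the inner membrane, fell by 0.89 in X-1 (0.000184) and had −0.26 in X-3 (0.087), and it was 0.63 higher in X-3 than in X-1 (0.0141). Mtif3, an initiation factor, was higher in X-3 by 0.60 (0.00982), where with median or spike-in scaling 0 factors were called higher by limma. Factors for ribosome assembly and rRNA modification had 27 genes measured, with 11 lower and 3 higher in X-1 (40.7% and 11.1%) and 8 lower and 5 higher in X-3 (29.6% and 18.5%, the lower share again near that of all genes). Rpusd3, Mtg1 and Tfb1m, a methyltransferase of the small subunit rRNA, fell by 1.76, 1.67 and 1.32 in X-1 and by 1.71, 1.23 and 0.90 in X-3, and Ybey, an endoribonuclease, had 0.74 and 0.78 (0.000686 and 0.000553). Genes for mitochondrial DNA upkeep and transcription (11 measured) had 3 lower and 2 higher in X-1 (27.3% and 18.2%) and 2 lower and 3 higher in X-3 (18.2% and 27.3%), no larger a share than that of all genes in either direction. Top1mt, the mitochondrial topoisomerase, fell by 1.54 in X-1 and 0.94 in X-3, and Twnk, the helicase, had 0.67 and 1.0. With spike-in scaling the assembly factors called higher by limma numbered 0 in X-1 and 1 in X-3, and the mitochondrial DNA genes 0 and 0.

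The respiratory chain, taken here with ATP synthase, has some of its core subunits made by the mitochondrial ribosome. Of its 81 nuclear genes 39 were lower and 1 higher in X-1 (48.1% lower, median −0.40), and 36 lower and 3 higher in X-3 (44.4% lower, median −0.43). Without slide 1 the X-3 count was 57 lower and 4 higher (70.4% lower, against 34.4% of all genes). Ndufb5, a complex I subunit, fell by 1.92 in X-1 and 1.64 in X-3. Cox8b, a complex IV subunit, was above background on 0 of 3 X-1 arrays and 2 of 3 X-3 arrays, against 3 of 3 control arrays. As Cox8b passed the filter on dim probes through the control group alone, its place among the 81 depended on that filter. Cox7a1, another complex IV subunit, had log2 differences from control of 0.85 in X-1 and 1.07 in X-3 with 75th percentile scaling. With spike-in scaling Cox7a1 was not called higher in either, and 75 genes of the chain were lower in X-1 (92.6%, against 59.0% of all genes) and 71 in X-3 (87.7%, against 49.8%). Cytosolic ribosomal proteins had 41 of 76 genes higher and 1 lower in X-1 (53.9% higher, median 0.41) and 37 higher and 0 lower in X-3 (48.7% higher, median 0.42), but this depended on the scaling: after quantile normalization the medians were 0.01 and 0.09 with 3 and 13 higher and 3 and 3 lower, and with spike-in scaling they were −0.42 and −0.32. The 15 genes of mitochondrial DNA were not analysed here.

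Among 12 measured regulators of mitochondrial genes, 7 were higher and 2 lower in each comparison (58.3% and 16.7%). Ppargc1b, a coactivator of mitochondrial biogenesis, fell by 3.29 in X-1 and 2.74 in X-3. Hcfc1, a transcriptional cofactor, fell by 1.26 and 1.17. Gabpb2, a GABP subunit, was above background on 3 of 3 X-1 arrays and 3 of 3 X-3 arrays, against 0 of 3 control arrays. As Gabpb2 passed the filter on dim probes through the treated groups alone, its place among the 12 depended on that filter. Mxi1, an antagonist of Myc, rose by 3.81 and 3.35, and Myc rose by 1.97 and 1.61. With spike-in scaling the regulators had 4 higher and 5 lower in each comparison (33.3% higher, against 9.32% of all genes in X-1 and 11.1% in X-3, and 41.7% lower, against 59.0% and 49.8%).

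**Figure D5:**
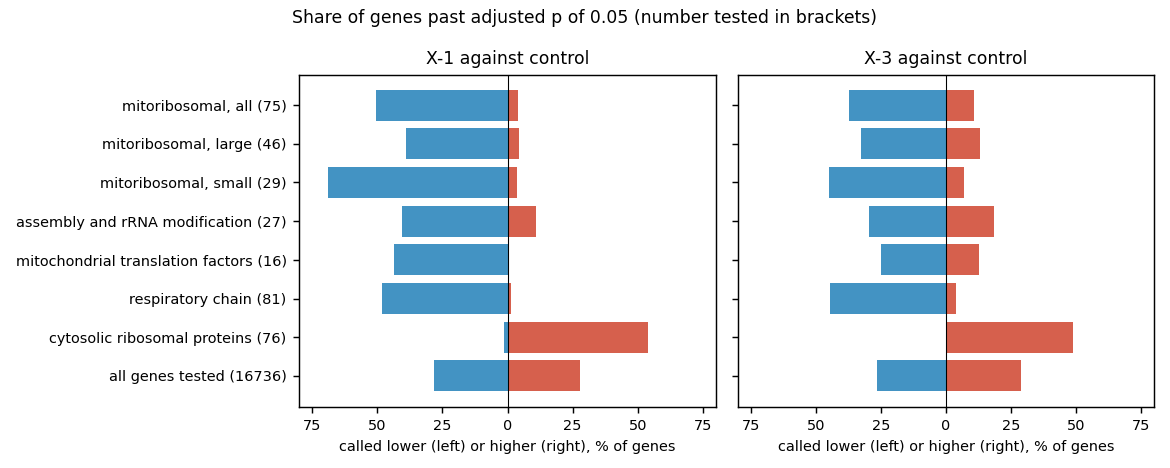
Share of genes past an adjusted p of 0.05 (horizontal axis, percent, lower to the left and higher to the right) in X-1 against control and X-3 against control, with the number tested in brackets. Small subunit genes have 69.0% lower in X-1, against 28.2% of all genes, and cytosolic ribosomal proteins have 53.9% higher, which falls to 3.95% after quantile normalization.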

How the data were processed

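Total RNA of 9 cultures was measured on 1-colour Agilent arrays. Spot intensity was deposited as 1 scanner file per array and, per the file headers, had been background-subtracted and spatially detrended within the array by Agilent Feature Extraction. The headers give version 10.5.1.1 for replicate 1 and 10.7.3.1 for the others, and the submitters' processing notes give 9.1. The headers record no scaling between arrays. A deposited score per probe and array was used as an alternative. Judged by their values, these scores were quantile normalized and standardized within each array.

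From the deposited intensity, log2 values minus each array's 75th percentile were computed. Of 41174 probes 214 were left out as outliers, and 25288 were kept, each well above background on every array of 1 group or more. A gene took its brightest kept probe. Probe names were updated through RefSeq accessions and synonyms. One limma fit (3.58.1, R 4.3.3) over 9 arrays with group as the term gave all comparisons, with Benjamini-Hochberg adjustment over 16736 genes and 95% intervals from the moderated fit. Python 3.11.15, pandas 2.3.3, numpy 2.4.6 and matplotlib 3.10.9 were also used. The fit was tested on simulated data. The number of arrays limits the precision.

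The members, gene lists and tests were chosen with earlier results of these data known. Genes named with full values were the 12 largest called rises and falls against control in each comparison, up to 10 between compounds, genes whose kept probes were called in opposite directions, the Mrps18 genes, Mrpl12, Mrps12 and Mrpl11, and, from each other list, examples among the 3 largest called rises and falls. The other lists were further mitoribosome genes, translation factors, assembly factors, mitochondrial DNA expression, mitochondrially encoded genes, regulators, the respiratory chain, cytosolic ribosomal proteins and cell type markers.

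Alternatives changed the scaling (median, quantile, 8 spike-in probes in replicates 2 and 3), background (normexp, offset 50, on the median signal, because the mean signal planned for it is not in every file), filter, probe rule, arrays, slide block, samples fitted and values. Same-numbered arrays shared a slide. Their deviations from group means correlated across genes at 0.517, 0.318 and 0.271 for X-1 and control and at 0.238, 0.112 and 0.230 for X-3 and control, so the numbers pair the arrays there. For X-3 and X-1 the values were −0.041, −0.182 and 0.156. One cell type marker is not reported here.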

Additional observations from a re-analysis of the deposited data

Results flagged for a closer look

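In 4 genes X-3 and X-1 differed by the direct test between the compounds. Mrps27 was higher in X-3 than in X-1 by 0.82 on the log2 scale, with X-3 above X-1 on 3 of 3 slides. Mrpl37 was higher by 0.64 and Mrps18b by 0.47, and Mrps6 had −0.56. Mrps27 kept its call under each alternative tried, and Mrpl37 lost it when some single arrays were left out, with median scaling and without the filter on dim probes. The Mrps18b and Mrps6 calls lay close to the threshold and rested on the choice of arrays. Both were also lost with median scaling, with spike-in scaling, without the filter on dim probes, with the mean of probes and with the slide as a block.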

How the results depend on the processing

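Scaling moved the whole distribution: the median of all genes shifted by −0.20 with median scaling in both comparisons with control, and by −0.89 in X-1 and −0.70 in X-3 with spike-in scaling. Since spike-in scaling used replicates 2 and 3 alone, its shift was also taken from the fit of the same arrays, at −0.89 and −0.69. With median scaling 0 members were called higher by limma in X-1 and 0 in X-3 (18.7% and 18.4% of all genes). With spike-in scaling the counts were likewise 0 and 0 (9.32% and 11.1% of all genes), with 68 and 62 lower (90.7% and 82.7%, against 59.0% and 49.8% of all genes), where the same arrays with 75th percentile scaling had 43 and 51 lower and 6 and 8 higher. The medians with median scaling were −0.52 (large) and −0.80 (small) in X-1 and −0.50 and −0.67 in X-3, and with spike-in scaling −1.12, −1.46, −1.08 and −1.22. Tested probe by probe, the small subunit median in X-1 was −0.51. Higher calls in X-1 numbered 1 without the filter on dim probes and 5 with only the 2 groups fitted. In X-3 against X-1, higher calls numbered 8 with the deposited scores and with quantile normalization, and 1 with median scaling and with no filter. Lower calls there numbered 2 with the deposited scores and with quantile normalization, and 0 with each probe by itself, the mean of probes, median scaling, spike-in scaling, no filter, the slide as replicate block and only the 2 groups fitted.

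With spike-in scaling the rising genes lost their calls (adjusted p = 0.121 to 0.995) and had values below 0: Mrps30 came to −0.36 in X-1 and −0.30 in X-3, Mrpl32 to −0.51 and −0.33, Mrpl10 to −0.49 and −0.20, and in X-3 Mrpl33 to −0.0024, Mrpl1 to −0.24, Mrpl30 to −0.35, Mrpl24 to −0.41 and Mrps18b to −0.29. With the mean of all kept probes Mrpl1 had −0.29 and Mrps18b −0.082 in X-3, by the construction of that mean, which for Mrps18b includes a probe of the other strand. The cause of the other changes was not tested.

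Leaving out single arrays, or all of slide 1, gave 0 to 6 higher in X-1 (0 without X-1 replicate 2, 6 without X-3 replicate 1) and 29 to 44 lower. X-3 had 3 to 8 higher (3 without control replicate 2, 4 without control replicate 3) and 22 to 51 lower. X-3 against X-1 had 1 to 7 higher and 0 to 13 lower. With the replicate block the counts were 41 lower and 3 higher in X-1 and 29 lower and 8 higher in X-3. Beside Mrps18b (in X-3 against control and against X-1) and Mrps6, the block ended no call among the genes named with full values.

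Of 819 values of 39 gene results under alternatives, 718 kept direction and call, 88 lost the call and 13 changed sign. The 24 falls named by size and the Mrps27 difference between the compounds passed under every alternative tried. Signal over background limited few members, since every chosen probe was above background on all 9 arrays.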
